A study of Mus musculus with 10 samples.

Results

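Small nucleolar RNAs, their host genes and other noncoding RNA genes were compared between Sirt1 deleted and Control leukemic mouse spleens. They were taken by gene symbol alone: every symbol that begins with Snora, Snord, Scarna, Snhg or Rnu, or with Mir followed by a digit, and 8 single genes, Rn45s, Rmrp, Rpph1, Rn7sk, Terc, Malat1, Neat1 and Gas5. This gave 236 of the 16865 genes in the table. They comprise 111 microRNA (Mir) genes, 55 box C/D small nucleolar RNAs (snoRNAs, symbols Snord), 34 H/ACA snoRNAs (Snora), 15 snoRNA host genes (Snhg), 8 single genes, 7 Rnu genes and 6 small Cajal body RNAs (Scarna).

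Bulk RNA was sequenced from 10 spleens of C57BL/6 mice that had been irradiated below the lethal dose and injected intravenously with a T cell acute lymphoblastic leukemia (T-ALL) carrying a conditional knockout of Sirt1, which encodes a NAD-dependent protein deacetylase. The Sirt1 deleted group held 5 spleens of mice injected intraperitoneally with tamoxifen, 3 mg per mouse in corn oil. The Control group held 5 spleens of mice that received corn oil only and carried the same kind of conditional leukemia. Tamoxifen and the deletion came together, so their effects cannot be told apart. The labels give no recombinase driver, age, day of collection or batch. They do not say whether the spleens carried 1 leukemia or several, so the p-values reflect only how these samples vary. Each spleen also holds blood cells of the recipient, and red cells were lysed before extraction.

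Box C/D snoRNAs guide ribose methylation and H/ACA snoRNAs guide pseudouridylation, mostly of ribosomal RNA, and each class works in its own particle of shared proteins. In mammals most of them are cut out of introns, many of them in ribosomal protein genes and others in noncoding Snhg genes or Gas5. Snhg and Gas5 transcripts are spliced and exported, and several are degraded when translated by nonsense-mediated decay. RNA polymerase I makes the ribosomal RNA precursor (Rn45s), while RNA polymerase III makes the RNAs of RNase P (Rpph1), RNase MRP (Rmrp) and the 7SK particle (Rn7sk). The RNA was purified on silica columns, which recover small RNAs poorly, and mature microRNAs are shorter than most fragments in libraries of this kind. The values of the smallest genes therefore describe the reads assigned to their gene models and not the amount of the mature RNA. How RNA was selected for the libraries is not given in the sources used here. The values of Rn45s, Rpph1, Rmrp, Rn7sk and the Rnu genes are therefore also described as reads assigned to gene models.

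Sirt1 was 922, 824, 1071, 1061 and 709.6 normalized counts in Sirt1 deleted libraries, against 1324, 1348, 1174, 1192 and 1126 in Control libraries. The groups did not overlap (log2 difference -0.44, exact permutation p = 0.00794, two-sided, the smallest that 5 against 5 libraries allow). Library totals were between 33.6 M and 34.8 M normalized counts, and the steps between low values put the depths at 21.2 M to 44.3 M reads. At these depths a normalized count of 20 rests on about 12.4 to 26.2 reads. Summed T cell markers were 267873 ± 14477 in Sirt1 deleted and 268009 ± 7866 in Control libraries (SD, n = 5 each). Markers of other cells were present in every library, and some differed between the groups. Higher were 4 of 9 tested B cell markers and 2 of 9 neutrophil markers, beside 14.5% of all tested genes. Lower were 6 of 10 macrophage markers and 4 of 10 erythroid markers, beside 17.5% of all tested genes. Summed B cell markers were 308 to 481 in Sirt1 deleted and 239 to 311 in Control libraries, and summed neutrophil markers 1997 to 8552 in Sirt1 deleted and 1456 to 4166 in Control libraries. Summed macrophage markers were 6183 to 9916 in Sirt1 deleted and 10695 to 15607 in Control libraries, and summed erythroid markers 218159 to 482933 in Sirt1 deleted and 439858 to 558982 in Control libraries. Sirt1 deleted library 1 held both the lowest erythroid and the highest neutrophil sum. Differences also followed transcript length: the slope of a library's log2 deviations on log2 length was -0.0980 ± 0.0861 in Sirt1 deleted and 0.0980 ± 0.0617 in Control libraries. Deviations were taken from each gene's mean over all libraries, so the group means are equal and opposite by construction. In bulk samples, fewer cells of a type and less RNA per cell cannot be told apart.

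The sequences of the small RNAs on which the results turn are given here in the forms that GENCODE M21 (snoRNAs) and RefSeq (microRNAs) annotate on GRCm38, the assembly that mm10 names. The first 4 are H/ACA snoRNAs, 3 of them called higher (Snora68, Snora31 and Snora34) and 1 the most abundant of its class (Snora65). Capitals mark the ACA that ends 3 bases before the 3′ end, on the strand of the gene, the feature that gives the class its name. It stood there in 28 of 34 H/ACA members with a sequence (82.4%), and in 35 of all 42 annotated Snora transcripts (83.3%).
Snora68, chr8:70895759-70895889, minus strand: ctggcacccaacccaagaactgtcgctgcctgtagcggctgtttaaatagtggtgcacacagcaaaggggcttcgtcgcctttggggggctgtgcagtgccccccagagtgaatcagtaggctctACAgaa
Snora31, chr14:75847905-75848034, plus strand: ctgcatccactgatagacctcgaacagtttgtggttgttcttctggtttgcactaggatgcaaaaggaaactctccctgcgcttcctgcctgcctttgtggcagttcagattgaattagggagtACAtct
Snora34, chr15:98519716-98519853, minus strand: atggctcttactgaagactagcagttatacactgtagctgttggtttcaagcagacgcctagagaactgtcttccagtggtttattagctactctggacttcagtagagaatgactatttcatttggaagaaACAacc
Snora65, chr2:32963291-32963420, plus strand: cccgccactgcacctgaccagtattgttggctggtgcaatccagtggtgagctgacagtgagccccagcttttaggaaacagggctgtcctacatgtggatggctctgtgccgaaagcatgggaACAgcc

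The next 3 are box C/D snoRNAs: the 1 called higher, the most abundant of the class, and the 1 called lower. Capitals mark TGATGA within the first 20 bases (box C) and CTGA within the last 15 (box D), each searched on the strand of the gene. TGATGA stood there in 34 of 55 box C/D members (61.8%) and 70 of 98 annotated Snord transcripts (71.4%), and CTGA in 50 of 55 (90.9%) and 92 of 98 (93.9%). Snord19 had neither in these windows.
Snord104, chr11:106500993-106501062, plus strand: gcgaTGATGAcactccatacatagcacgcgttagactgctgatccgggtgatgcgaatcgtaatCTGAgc
Snord96a, chr11:48802032-48802112, plus strand: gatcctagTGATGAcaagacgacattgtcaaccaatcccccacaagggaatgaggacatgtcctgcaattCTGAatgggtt
Snord19, chr14:31016206-31016281, minus strand: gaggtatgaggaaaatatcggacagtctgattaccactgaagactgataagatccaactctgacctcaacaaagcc

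Snora73b and Snora73a are shown because they are near-identical neighbours within Snhg3, so that reads could be shared between them. Both are 205 bases long and 96.6% identical, and the 7 bases at which they differ are in capitals.
Snora73b, chr4:132352322-132352526, minus strand: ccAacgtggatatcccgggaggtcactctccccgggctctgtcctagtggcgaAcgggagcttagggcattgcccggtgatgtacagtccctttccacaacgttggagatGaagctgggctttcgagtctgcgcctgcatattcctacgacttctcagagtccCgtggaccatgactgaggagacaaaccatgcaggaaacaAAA
Snora73a, chr4:132352775-132352979, minus strand: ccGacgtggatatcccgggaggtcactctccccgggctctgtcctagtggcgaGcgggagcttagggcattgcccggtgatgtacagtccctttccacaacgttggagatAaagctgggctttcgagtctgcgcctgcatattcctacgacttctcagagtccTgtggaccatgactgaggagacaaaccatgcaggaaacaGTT

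The last set gives the mature microRNAs of the 5 Mir genes that were called, with the seed (bases 2 to 8) in capitals. RefSeq lists a microRNA for 101 of the 111 Mir genes. The 6 mature sequences carried 6 different seeds, so no seed was shared.
mmu-miR-6385, chr9:58221155-58221175, plus strand: gCAAGGAUgacagagaggaag
mmu-miR-142b, chr11:87756906-87756925, minus strand: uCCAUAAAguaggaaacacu
mmu-miR-5125, chr17:23823339-23823358, plus strand: uCUGCCUGggauuuccuugu
mmu-miR-7652-5p, chr11:55501226-55501247, plus strand: uAAGGGCAcagggauuucaggc
mmu-miR-7652-3p, chr11:55501261-55501281, plus strand: uCUGGCUUuccuguggcuucu
mmu-miR-8091, chr19:41588691-41588712, plus strand: aGGAGUGAgugguaagcuggug

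Of the 236 genes, 113 held 10 or more normalized counts in at least 5 libraries and were tested. Among these, 20 were higher in Sirt1 deleted libraries, 3 were lower and 90 were not called at an adjusted p of 0.05 (limma-trend on log2 of the normalized count plus 1, Benjamini-Hochberg over all 13567 tested genes). The share called was 20.4%, against 32% of all tested genes; 17.7% of the tested noncoding RNA genes were called higher, against 14.5% of all, and 3 of 113 were called lower, against 17.5% of all. The groups did not overlap for 7 genes, all higher in Sirt1 deleted (8.28% of all tested genes were higher and 8.18% lower without overlap). The median difference was 0.19 on the log2 scale, beside 0.00 for all tested genes. The 23 calls came from a few classes: 8 of the 16 tested Snhg genes and Gas5 together, 5 of 26 H/ACA snoRNAs, 2 of 39 box C/D snoRNAs, 5 of 21 Mir genes and 3 further single genes. A gene that passes the filter only in the group where it is high has to differ, so these counts describe the genes that passed and not all 236. Mir6385 is such a gene, and it is counted among the 20 higher and the 7 without overlap. Of the 123 untested genes, 77 had at least 1 library at 0, and their means were between 0.888 and 11.5 normalized counts.

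**Figure D1:**
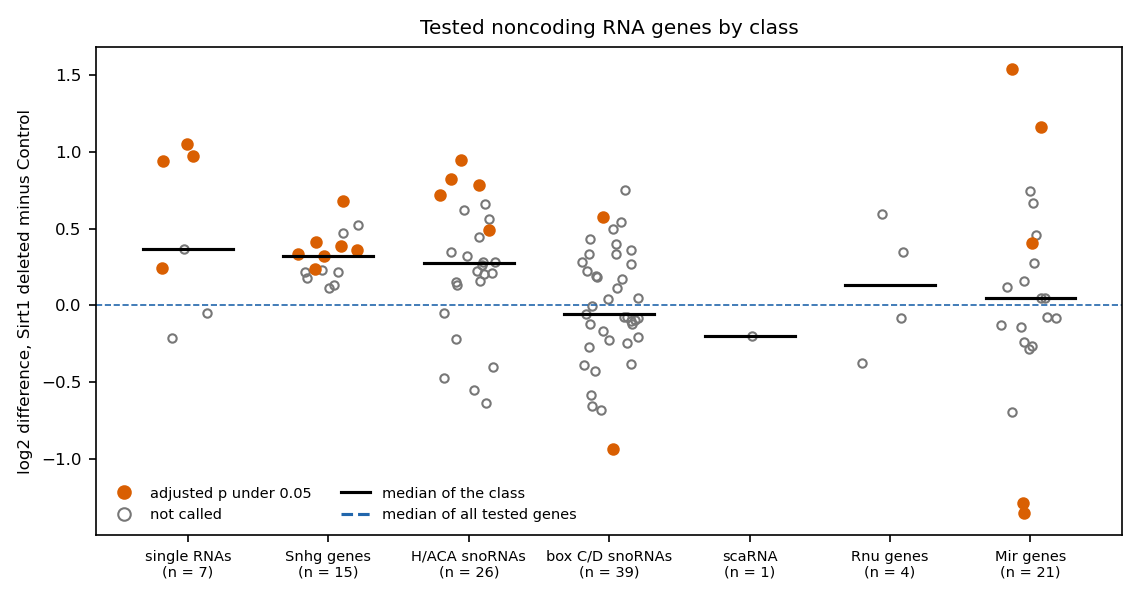
Log2 difference (Sirt1 deleted minus Control, vertical axis) of each of the 113 tested noncoding RNA genes by class; filled points passed an adjusted p of 0.05, black lines are class medians and the dashed line is the median of all tested genes. Snhg genes all lie above 0, whereas box C/D snoRNAs lie on both sides of it with a median of -0.05.

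The number of calls depended on single libraries. It was 11 without Sirt1 deleted library 2, 14 without Sirt1 deleted library 5, 12 without Control library 1 or Control library 2, and 14 without Control library 3. The count over all tested genes, 4344 with every library, fell in the same fits to 2717, 3415, 2346, 2212 and 3292. When the model also held the length slope of each library, limma called 0 members (7 at an unadjusted p under 0.05), and with the mean of the B cell markers in its place also 0 (8 unadjusted). Both of these models called 0 of all tested genes as well (577 and 1660 unadjusted). After a correction of each library for transcript length, 12 of the 105 members with a length were called, 7 higher and 5 lower, where 7.79% of all genes were higher and 6.65% lower. Of the 85 tested genes of up to 200 bases only 3 lay outside the set, so for the small RNAs that correction sets the genes mainly against each other and is no independent check.

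Among the single genes, the gene models of the ribosomal RNA precursor and of the RNAs of both related ribonucleases were called higher, and so was Gas5. The gene model Rn45s, named for the precursor of the ribosomal RNAs, had 24985, 31997, 22104, 21507 and 26486 normalized counts in Sirt1 deleted libraries, against 18325, 7891, 9519, 15361 and 18124 in Control libraries. The lowest Sirt1 deleted library lay above the highest Control library, and Control libraries 2 and 3 were far below the other Control libraries. The log2 difference was 0.94 (SE 0.215, adjusted p = 0.0104), and Rn45s made up 0.0631% to 0.0934% of the normalized counts in Sirt1 deleted and 0.0230% to 0.0536% in Control libraries. Rn45s stands for many near-identical gene copies, has no position in GENCODE M21, and could not be corrected for length. Whether its reads came from the precursor or from mature ribosomal RNA was not tested.

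Rpph1, the catalytic RNA of RNase P, which trims the leaders of transfer RNA precursors, had 162, 206, 113, 142 and 274 normalized counts in Sirt1 deleted libraries and 78.6, 60.9, 83.3, 131 and 71.0 in Control libraries. Only Control library 4 reached into the Sirt1 deleted range, and the difference was 1.05 (SE 0.239, adjusted p = 0.0103). Rmrp, the RNA of RNase MRP, which cuts ribosomal RNA precursors, had 29.4, 54.7, 21.2, 36.0 and 71.9 in Sirt1 deleted against 15.4, 16.4, 20.3, 17.9 and 29.0 in Control libraries. Sirt1 deleted library 3 lay below Control library 5, so the groups overlapped, and the difference was 0.98 (SE 0.305, adjusted p = 0.0292). Sirt1 deleted library 5 had the highest value of both RNAs, and it is also the library with the steepest length slope (-0.240). Rmrp was not called without Sirt1 deleted library 2 or 5, or without any 1 of Control libraries 1 to 4, whereas Rpph1 was called without any 1 library. Rmrp had no length for the length correction, and with the length slope as a covariate it stood at -0.23.

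Gas5, the host of several box C/D snoRNAs, averaged 10096 ± 1049 normalized counts in Sirt1 deleted and 8495 ± 618 in Control libraries (SD, n = 5 each). Its ranges were 9036 to 11562 against 7734 to 9244, so 2 Sirt1 deleted libraries lay within the Control range (difference 0.25, SE 0.0745, adjusted p = 0.0259). Gas5 was not called without Sirt1 deleted library 2 or without Control library 1, 2 or 3. Rn7sk, which holds the elongation factor P-TEFb inactive, was 516, 342, 226, 229.8 and 450.4 against 211, 220.1, 323, 323 and 236, and the groups overlapped (0.37, SE 0.227, adjusted p = 0.221). The long nuclear RNAs were not called. Malat1, a nuclear speckle RNA, had 4291 ± 845 in Sirt1 deleted and 4970 ± 903 in Control libraries (-0.21, SE 0.142, adjusted p = 0.257). Neat1, the scaffold of paraspeckles, had 2465 ± 420 and 2581 ± 575 (-0.05, SE 0.158, adjusted p = 0.821). Terc, the telomerase RNA, was too low to test, with means of 3.99 in Sirt1 deleted and 2.42 in Control libraries.

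**Figure D2:**
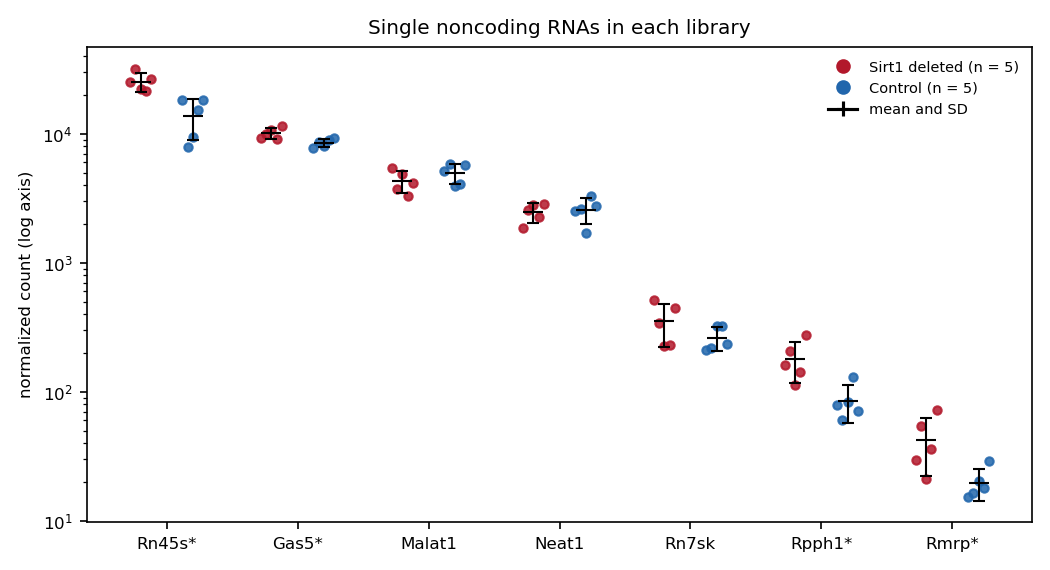
Normalized counts (log axis) of 7 single noncoding RNAs in each library, Sirt1 deleted in red on the left and Control in blue on the right, with mean and SD in black; asterisks mark genes with an adjusted p under 0.05. Rn45s is the only one of the 7 whose groups do not overlap.

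All 15 Snhg genes were tested, and all 15 had a higher mean on the log2 scale in Sirt1 deleted libraries, where 6802 of all 13567 tested genes did. The test called 7 of them higher, 0 lower and 8 not at all, with differences of 0.11 to 0.68 and a median of 0.32. Of all tested genes, 14.5% were called higher and 17.5% lower. Their summed level was 14476 to 18576 normalized counts in Sirt1 deleted and 12334 to 14349 in Control libraries. These sums did not overlap, though Sirt1 deleted library 1 exceeded Control library 4 by little.

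Snhg20 had the largest difference of the class. It was 328, 423, 349, 296 and 399.6 normalized counts in Sirt1 deleted libraries, against 215, 193, 164, 259.5 and 304 in Control libraries. Only Control library 5 exceeded the lowest Sirt1 deleted library (0.68, SE 0.156, adjusted p = 0.0106). Snhg6 had 1276, 1349, 1468, 1292 and 1651 in Sirt1 deleted against 1004, 1004, 930.2, 1291 and 1171 in Control libraries, where Control library 4 alone reached the Sirt1 deleted range (0.39, SE 0.0976, adjusted p = 0.0138). Snhg8 had 1310 as its lowest Sirt1 deleted value and 1309 as its highest Control value, so its groups were apart by about 1 count (0.33, SE 0.0998, adjusted p = 0.0245).

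Snhg3, the host of Snora73a and Snora73b, averaged 1119 ± 184 in Sirt1 deleted and 867 ± 106 in Control libraries (0.36, adjusted p = 0.0313). Snhg7 averaged 490.1 ± 112 and 363 ± 41.8 (0.41, adjusted p = 0.0366). Both overlapped between the groups. Snhg15 (0.32, adjusted p = 0.0153) and Snhg4 (0.24, adjusted p = 0.0431) were the other 2 called, and only Snhg15 and Snhg8 were free of overlap. Just outside the threshold stood Snhg1, the most abundant of the class, with 4509 ± 425 in Sirt1 deleted and 3972 ± 226 in Control libraries (0.18, adjusted p = 0.0548), and Snhg5 with 1892 ± 151 and 1631 ± 171 (0.22, adjusted p = 0.0557).

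Transcript length moved with this class. The longest annotated transcripts of Snhg3, Snhg6, Snhg8 and Snhg15 have 581, 816, 776 and 675 bases, and the 812 other tested genes of over 200 and up to 1000 bases had a median difference of 0.32 as well. In that length class 51.3% of the 823 tested genes were called higher. After a spline correction of each library for transcript length, Snhg3 stood at 0.05, Snhg6 at 0.09, Snhg8 at 0.04 and Snhg15 at 0.02, and none of the 4 was called. Snhg20, whose longest transcript has 2153 bases, stood at 0.61 and Gas5, with 2556 bases, at 0.22, and both kept their calls. In the model that held the length slopes, limma called 0 of the 16 Snhg genes and Gas5 (0 at an unadjusted p under 0.05). The count of 8 called in this group was 3 without Sirt1 deleted library 2 or without any 1 of Control libraries 1 to 3, and 5 without Sirt1 deleted library 5. Snhg20, Snhg6 and Snhg15 were called without any 1 library. Snhg8 was not called without Sirt1 deleted library 2 or Control library 1, 2 or 3. Snhg3, Snhg7 and Snhg4 were not called without any 1 of Sirt1 deleted libraries 2, 3 and 5 and Control libraries 1 to 3, and also Snhg7 without Control library 4 and Snhg4 without Control library 5.

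**Figure D3:**
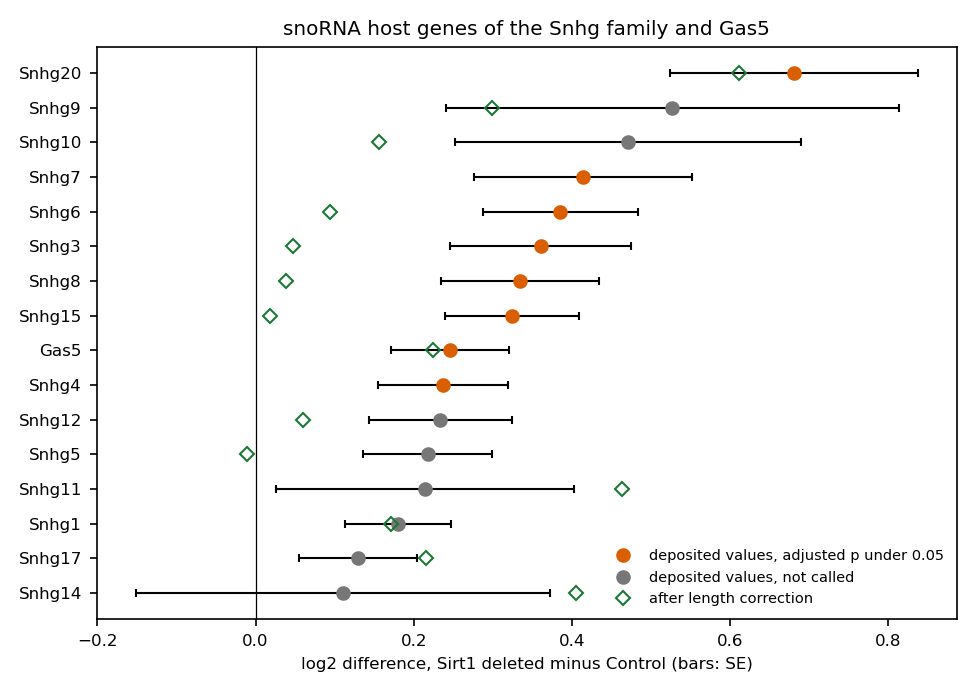
Log2 difference (Sirt1 deleted minus Control, horizontal axis) of the 15 Snhg genes and Gas5 with SE bars, filled in orange where the adjusted p was under 0.05; diamonds give the difference after correction for transcript length, which Snhg4 and Snhg7 lack. All 16 points lie above 0, and the diamonds of Snhg3, Snhg6, Snhg8 and Snhg15 lie between 0.02 and 0.09.

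Of 34 H/ACA snoRNAs 26 were tested, and 5 were higher, 0 lower and 21 not called, with a median difference of 0.27 and 20 of 26 above 0. The share called higher was 19.2%, beside 14.5% of all tested genes, and 17.5% of all tested genes were lower. Their levels were low, from 8.12 to 295 normalized counts with a median of 36.1. The class summed to 1412 to 1665 normalized counts in Sirt1 deleted and 1069 to 1474 in Control libraries.

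Snora68, which in human cells guides pseudouridylation of the large ribosomal RNA, had 117, 131, 154, 109 and 132 normalized counts in Sirt1 deleted libraries. In Control libraries it had 59.3, 82.1, 57.0, 96.1 and 70.7. Every Sirt1 deleted library lay above every Control library, and the difference was 0.82 (SE 0.159, adjusted p = 0.00797). GENCODE M21 places it inside an exon of at least 1 longer transcript, so reads may be shared.

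Snora73b, a member of the U17 family needed for processing of the small ribosomal RNA, had 168, 192, 195, 171 and 186 in Sirt1 deleted libraries against 131, 131, 132, 149 and 107 in Control libraries. Its groups did not overlap (0.49, SE 0.106, adjusted p = 0.00902). Snora73a, its near-identical neighbour printed with it, had 128, 142, 126, 144 and 145 against 103, 125, 117, 134 and 137, with overlap (0.16, SE 0.109, adjusted p = 0.272). How reads were divided between them is not given in the sources used here. Their sum does not depend on that division, and it was 296 to 334 in Sirt1 deleted and 233 to 283 in Control libraries, again without overlap. GENCODE M21 places Snora73a over an exon of Snhg3, so reads may also be shared with that host, which differed by 0.36. Snora73b was not called after length correction.

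Snora31, in an intron of Tpt1, had 35.4, 45.7, 52.8, 50.4 and 61.5 normalized counts in Sirt1 deleted libraries against 35.0, 32.7, 18.5, 36.2 and 26.3 in Control libraries. Sirt1 deleted library 1 fell within the Control range and the other 4 lay above it (0.72, SE 0.213, adjusted p = 0.0236). Snora43, placed by RefSeq within the span of Snhg7, had 37.8, 47.8, 66.9, 31.6 and 51.9 against 23.1, 33.2, 23.1, 25.3 and 26.9. Only Control library 2 reached the Sirt1 deleted range (0.79, SE 0.209, adjusted p = 0.0161). Snora34, in an intron of Kansl2, was the weakest of these, with 14.2, 20.5, 9.995, 15.7 and 14.1 against 5.87, 10.05, 9.11, 10.3 and 2.90 (0.95, SE 0.331, adjusted p = 0.0438). It kept its call in 2 of the 10 fits that left out 1 library (Sirt1 deleted library 3 or Control library 4) and lost it under quantile normalization. A few reads decide such values, and its groups met at about 10. Kansl2 differed by 0.03 (adjusted p = 0.614).

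Snora65, the most abundant H/ACA snoRNA, was 273, 278, 315, 301 and 453 in Sirt1 deleted against 219.8, 332, 190.5, 294 and 298 in Control libraries, and the groups overlapped (0.28, SE 0.17, adjusted p = 0.209). The count of 5 called H/ACA snoRNAs was 3 without Sirt1 deleted library 5, where Snora31 and Snora34 were not called.

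Box C/D snoRNAs were spread on both sides of 0. Of 55 genes 39 were tested, 1 was higher, 1 lower and 37 not called, with a median difference of -0.05, 18 above 0 and 21 below. The share called was 5.13%, against 32% of all tested genes. Levels were from 10.6 to 312 normalized counts with a median of 19.9, and the class summed to 1605 to 2002 in Sirt1 deleted and 1318 to 1997 in Control libraries. Snord104 had 323, 261, 229.9, 231 and 365 in Sirt1 deleted against 165, 200, 135, 203 and 242 in Control libraries. Control library 5 alone exceeded the lowest Sirt1 deleted libraries (0.58, SE 0.168, adjusted p = 0.0228), and Snord104 was not called without Control library 1 or 3.

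Snord19 fell. It had 8.75, 20.3, 9.66, 18.1 and 8.85 normalized counts in Sirt1 deleted libraries against 29.8, 46.6, 15.6, 19.2 and 20.8 in Control libraries. The difference was -0.94 (SE 0.333, adjusted p = 0.0464), the groups overlapped, and Control library 2 held the highest value. Its host Gnl3, which encodes nucleostemin, differed by 0.14 (adjusted p = 0.0991). Snord19 was not called without Sirt1 deleted library 1, 3 or 5, or without Control library 1, 2, 4 or 5.

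The most abundant box C/D snoRNA, Snord96a, was 345, 264, 329, 336 and 379 in Sirt1 deleted against 262, 266, 365, 271 and 304 in Control libraries, with overlap (0.17, SE 0.116, adjusted p = 0.266). Snord22 had 177 ± 35.6 in Sirt1 deleted and 143 ± 39.8 in Control libraries (0.34, SE 0.22, adjusted p = 0.249). Of 6 Scarna genes 1 passed the filter, Scarna13, at 10.3 ± 3.38 in Sirt1 deleted and 11.7 ± 2.16 in Control libraries (-0.20, SE 0.276, adjusted p = 0.601).

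The Rnu genes, mostly spliceosomal small nuclear RNAs, gave 4 tested genes of 7 and 0 calls at the adjusted threshold (0 at an unadjusted p under 0.05). Rnu6 had 49.8 ± 8.51 in Sirt1 deleted and 52.7 ± 8.59 in Control libraries (-0.08, SE 0.169, adjusted p = 0.725). Rnu1a1 had 33.2 ± 16.9 and 23.6 ± 5.79 (0.35, SE 0.336, adjusted p = 0.439). Rnu2-10 had 38.6 ± 11.5 and 49.0 ± 6.66 (-0.38, SE 0.208, adjusted p = 0.176). These RNAs have many near-identical copies in the genome, so their assignment is uncertain.

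**Figure D4:**
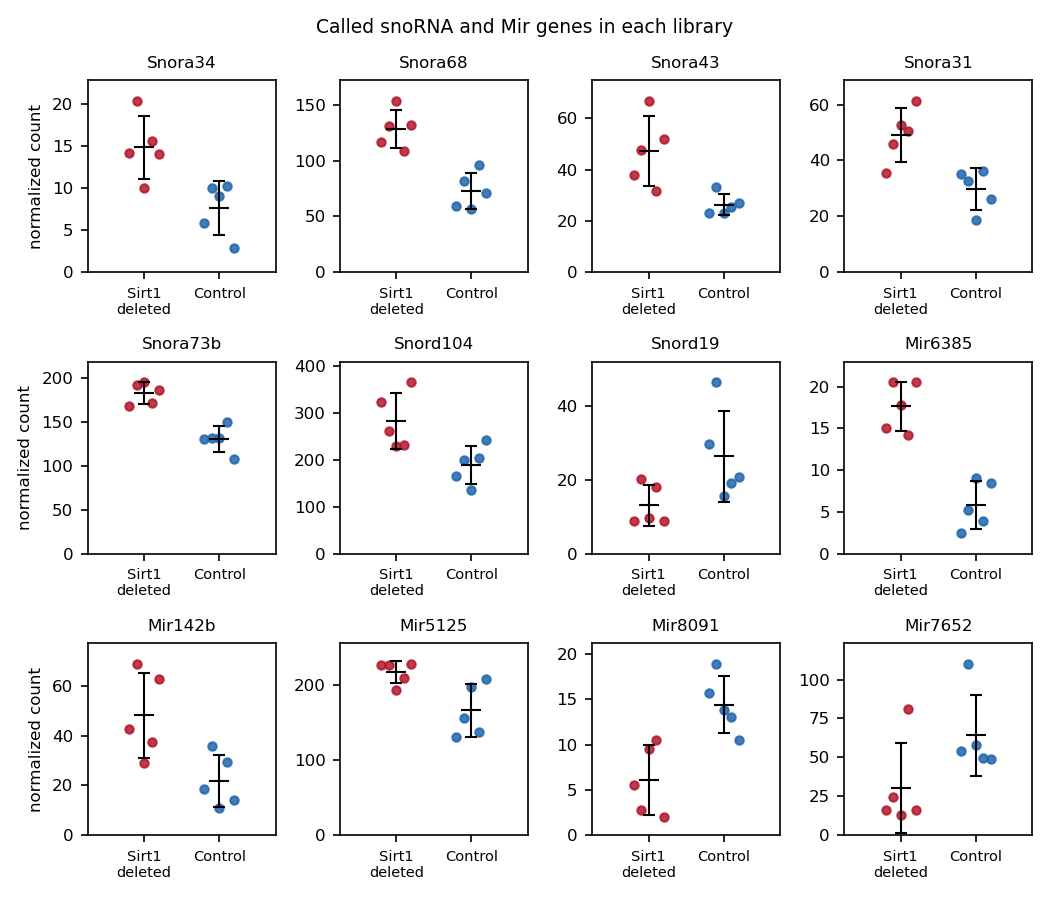
Normalized counts of the 12 called snoRNA and Mir genes in each library (vertical axes start at 0 and differ between panels), Sirt1 deleted in red on the left and Control in blue on the right, with mean and SD in black. Snora68 and Snora73b show no overlap. Mir6385 shows none either, but it passed the filter only through Sirt1 deleted libraries, so it had to differ. Single libraries stand far apart in Mir7652.

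The tested snoRNAs were then set beside their tested host genes. Of these pairs, 37 lie inside or over an annotated exon of the host, where reads may be shared, and 24 lie in introns. For H/ACA snoRNAs there were 26 tested pairs with 21 hosts, and the median difference was 0.27 for the snoRNAs and 0.32 for the hosts. Of these hosts, 13 were higher and 2 lower (14.5% of all tested genes were higher and 17.5% lower), and 21 of 26 pairs had the same sign. Both hosts that fell carried snoRNAs with values below 0, Eif5 at -0.26 with Snora28 at -0.40 and Srcap at -0.40 with Snora30 at -0.64, although neither snoRNA was called. After length correction Eif5 stood at -0.15 and Srcap at -0.03. Snora30 had the lowest level of the class (8.12). It was 12.4, 2.53, 6.91, 5.67 and 3.95 in Sirt1 deleted against 12.6, 11.6, 10.9, 11.1 and 3.56 in Control libraries, so it passed the filter mainly through Control libraries.

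For box C/D snoRNAs there were 37 pairs with 27 hosts, and the median difference was -0.08 for the snoRNAs and 0.27 for the hosts. Of these hosts, 15 were higher and 0 lower, where 14.5% of all tested genes were higher and 17.5% lower. Of the pairs, 16 of 37 had the same sign, and 28 of 37 snoRNAs lay below their host. Rpl13, a ribosomal protein gene, differed by 0.48 (adjusted p = 0.00797), while its Snord68 stood at -0.39 (adjusted p = 0.4). Rpl13a, another ribosomal protein gene, differed by 0.37 (adjusted p = 0.0147) and hosts 4 tested snoRNAs, Snord32a at 0.43, Snord33 at 0.33, Snord34 at -0.08 and Snord35a at 0.75, none of them called. After length correction Rpl13 stood at 0.19 and Rpl13a at 0.11. The pairs were compared in the deposited values alone, and the part of transcript length in the host differences was not tested. Members of 1 host share its transcript and are not replicates, and the difference between the classes was not tested.

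**Figure D5:**
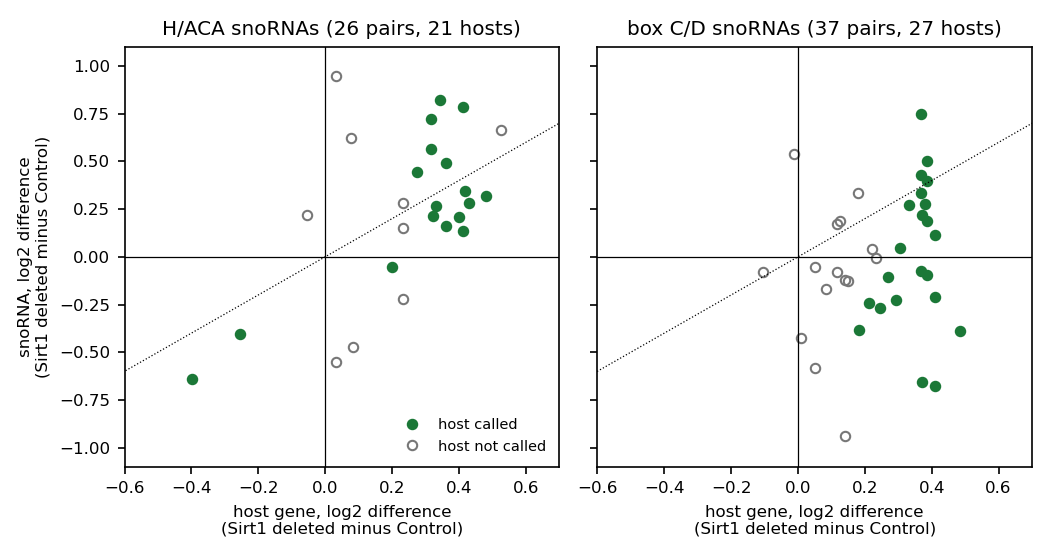
Log2 difference (Sirt1 deleted minus Control) of each tested snoRNA (vertical axis) against that of its host gene (horizontal axis) for H/ACA (left) and box C/D snoRNAs (right), filled where the host had an adjusted p under 0.05; the dotted line marks equal differences. In the box C/D panel 28 of 37 points lie below the dotted line.

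Of 111 Mir genes 21 were tested, 3 were higher, 2 lower and 16 not called, with a median difference of 0.05. The share called was 23.8%, against 32% of all tested genes, and the share called higher was 14.3%, against 14.5% of all. Of all Mir genes, 59 had at least 1 library at 0. Mir451a and Mir451b had identical values and are overlapping genes on opposite strands.

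Mir6385 passed the filter on low values only through Sirt1 deleted libraries, since no Control library reached 10, so it had to differ and its values are a description. It had 15.1, 20.6, 17.8, 14.3 and 20.5 normalized counts in Sirt1 deleted libraries against 2.48, 5.25, 9.09, 3.93 and 8.48 in Control libraries. The difference was 1.54, and it was not tested without any 1 of the Sirt1 deleted libraries. It lies antisense to Pml, a tumor suppressor gene of nuclear bodies, and the use of strand in counting is not stated, so reads of the pair cannot be told apart. Pml itself had 3648 ± 100.1 in Sirt1 deleted and 3818 ± 118 in Control libraries (-0.07, adjusted p = 0.276).

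Mir142b is annotated on the strand opposite Mir142, a blood cell microRNA gene, and covers all 64 bases of its hairpin. It had 42.8, 69.0, 28.8, 37.3 and 62.9 in Sirt1 deleted libraries against 18.7, 35.7, 10.7, 29.5 and 14.2 in Control libraries. Sirt1 deleted library 3 fell within the Control range, as Control libraries 2 and 4 reached that of Sirt1 deleted (1.17, SE 0.33, adjusted p = 0.0202). It was not called without Sirt1 deleted library 2. With B cell markers as a covariate the difference was -0.11; the B cell marker sums are given above, and their part in the result was not tested further.

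Mir5125, in an intron of the splicing factor gene Srrm2, had 227, 227, 194, 209.9 and 228 in Sirt1 deleted against 131, 157, 198, 138 and 209 in Control libraries, with Control libraries 3 and 5 in the Sirt1 deleted range (0.41, SE 0.135, adjusted p = 0.0358). It was not called after length correction, without Sirt1 deleted library 1, 2 or 5, or without Control library 1, 2 or 4. Srrm2 itself fell to 21705 ± 2019 in Sirt1 deleted, against 25477 ± 2456 in Control libraries (-0.23, adjusted p = 0.0355). After length correction Srrm2 stood at 0.12. The microRNA gene and its host thus differed in opposite directions in the deposited values.

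Mir7652, inside an exon of G3bp1, had 15.8, 24.7, 12.9, 81.3 and 15.9 in Sirt1 deleted against 54.1, 110.2, 58.0, 49.4 and 48.7 in Control libraries. Sirt1 deleted library 4 lay above all but 1 Control library, and the other 4 lay below all 5 Control libraries (-1.35, SE 0.42, adjusted p = 0.0285). G3bp1, a stress granule protein gene, differed by -0.12 (adjusted p = 0.138). Mir8091 had 5.53, 2.81, 9.56, 10.5 and 1.998 in Sirt1 deleted against 15.7, 19.0, 13.8, 13.1 and 10.5 in Control libraries, where the groups touched at 10.5 (-1.29, SE 0.388, adjusted p = 0.0251). RefSeq places it within the span of Lcor, a nuclear receptor corepressor gene, which fell to 97.1 ± 19.96 in Sirt1 deleted, against 196 ± 40.2 in Control libraries (-1.001, adjusted p = 0.00797). Neither Mir gene was called lower without Control library 1 or 2 or Sirt1 deleted library 2. Mir7652 was not called either without Sirt1 deleted library 1, 3 or 5 or Control library 3, and so kept its call without 3 of the 10 libraries. Of the values of Mir8091, 1 Sirt1 deleted and all 5 Control values reached 10. Mir17hg, the host transcript of the Mir17 to Mir92a cluster and the most abundant Mir gene, had 761 ± 85.1 in Sirt1 deleted and 743 ± 142 in Control libraries (0.05, SE 0.126, adjusted p = 0.792).

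Protein genes that bind, make or degrade these RNAs were counted in fixed lists, chosen with earlier results of these data known. Of the 107 tested, 48 were called, against 32% of all tested genes (14.5% higher and 17.5% lower). After length correction 17 of 106 were called, where 7.79% of all genes were higher and 6.65% lower. Box C/D particle proteins gave 3 higher of 4 tested and 0 lower, among them Fbl, the methyltransferase, with 14221 ± 668 in Sirt1 deleted and 12796 ± 227 in Control libraries (0.15, adjusted p = 0.0275). H/ACA particle proteins gave 3 higher of 6, such as Nop10 at 3806 ± 421 against 3097 ± 199 (0.29, adjusted p = 0.0142), and factors that assemble the particles gave 5 higher of 9 and 0 lower. Protein subunits of RNase P and RNase MRP gave 5 higher of 10 and 0 lower, led by Rpp21 with 977 ± 148 against 696 ± 73.4 (0.48, adjusted p = 0.00902). After length correction Fbl, Nop10 and Rpp21 were not called. The box C/D and H/ACA lists then had 1 member called each, neither of them called before. These were Nop58 (0.49, adjusted p = 0.00889) and Shq1 (0.27, adjusted p = 0.0495). Among the assembly factors 1 was called, Nufip1 (0.35, adjusted p = 0.011), which kept its call, and the RNase P and RNase MRP list had 0.

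RNA polymerase III subunits gave 2 higher and 1 lower of 13, with a median difference of 0.03. For this and the next lists, 14.5% of all tested genes were higher and 17.5% lower. In the list of the 7SK particle and P-TEFb 3 of 7 were higher and 2 lower. Ccnt1, the cyclin of P-TEFb, was 621, 406, 435, 539.8 and 239 normalized counts in Sirt1 deleted against 1220, 1296, 1096, 953 and 723 in Control libraries. Its groups did not overlap (-1.28, SE 0.224, adjusted p = 0.00797), and after length correction it stood at -0.96 and was still called. The nuclear exosome, which trims snoRNA ends, gave 6 higher and 1 lower of 14, led by Exosc6 with 1217 ± 152 in Sirt1 deleted and 804 ± 142 in Control libraries (0.61, adjusted p = 0.00851). The groups of Exosc6 overlapped. After length correction the exosome list had 3 higher and 1 lower, and its median difference was 0.04 in place of 0.18.

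Nonsense-mediated decay factors gave 2 higher and 4 lower of 10, among them the kinase Smg1 with 7975 ± 1672 against 11517 ± 1538 (-0.54, adjusted p = 0.0112), and 0 of the 4 lower calls held after length correction. MicroRNA processing proteins gave 1 higher and 6 lower of 9, beside 14.5% of all tested genes higher and 17.5% lower. Ago2 was 2609, 1484, 1776, 1907 and 903 in Sirt1 deleted against 5649, 5801, 4703, 3898 and 3164 in Control libraries, without overlap (-1.46, SE 0.239, adjusted p = 0.00797). Ago3 had 190.1 ± 47.4 and 316 ± 35.2 (-0.75, adjusted p = 0.00797). Ago2, Ago3 and Xpo5 were still called after length correction. Ago1 (-0.39 before and -0.08 after), Dicer1 and Drosha, the other members called lower, were then not called. Integrator subunits gave 0 higher and 2 lower of 14, telomerase proteins 2 higher and 0 lower of 5, and paraspeckle proteins 0 called of 6 in limma (1 at an unadjusted p under 0.05).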

How the data were processed

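Per the labels' protocols, strand-specific libraries were made from total RNA of leukemic spleens after red cell lysis and QIAGEN column extraction. Per the submitters' processing notes, kallisto 0.44.0 and DESeq (no version given) were used with mm10. The authors deposited 1 table of signal values, counts normalized between libraries, for 16865 genes, with a column per library, and 0 columns were left out. Values are not whole (83.3% to 91.0% of those under 8 lie within 0.1 of a step), so they were not treated as read counts. How transcripts were summed to genes, which annotation and filter were applied and whether strand was used in counting is not given in the sources used here. Whether poly(A) RNA was selected or ribosomal RNA removed is not given either. kallisto divides reads between overlapping transcripts, which touches snoRNAs within exons and paralogs.

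Genes with 10 or more in 5 or more libraries were tested. log2(value + 1) was compared with limma 3.58.1 (limma-trend, R 4.3.3), Sirt1 deleted minus Control, two-sided, with Benjamini-Hochberg adjustment over all 13567 genes tested and calls at 0.05. Fold differences of low genes are understated by the pseudocount of 1. Sirt1 was also tested by exact permutation. The steps were tested on simulated data. The members and lists were chosen with earlier results of these data known. Named genes are the single genes, in each class the 3 of highest mean and up to 4 called in each direction with the largest differences, their hosts, up to 2 called per protein list and Sirt1; others were named after their values were seen, and 1 host gene is not reported here. Positions come from GENCODE M21 (224 genes) or RefSeq alone (11), and 1 gene had none. Alternatives were pseudocounts of 0.5 and 5, no filter, a minimum of 50, other scalings, array weights, robust limma, covariates, a spline correction for transcript length (5 degrees of freedom) and each library left out. Since the length trend differs between the groups, that correction takes away real differences too where they run with length. Tables were made with pandas 2.3.3 and numpy 2.4.6 in Python 3.11.15, and plots with matplotlib 3.10.9. Intervals were not computed for the normalized counts.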

Additional observations from a re-analysis of the deposited data

Results flagged for a closer look

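Within groups of 5 libraries, 15 of the 172 groups of named genes held 1 library that stood apart from the other 4 by more than Dixon's 95% limit of 0.71 of the range; chance gives about 1 in 20. Mir7652 was marked in both groups, with 81.3 normalized counts in Sirt1 deleted library 4, against 12.9 to 24.7 in the other 4, and 110.2 in Control library 2, against 48.7 to 58.0 in the other 4. Snora65 was 453 in Sirt1 deleted library 5, against 273 to 315 in the other 4. Snord22 was 73.8 in Control library 3, against 153 to 175 in the other 4. Snora30 was 3.56 in Control library 5 (10.9 to 12.6 in the others), and Snord32a was 39.6 in Control library 1 (22.1 to 26.8 in the others).

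Among host genes, Srrm2 was 25271 in Sirt1 deleted library 1, against 20323 to 21156 in the other 4, and Tpt1 was 131830 in Control library 5, against 108140 to 110830 in the other 4. Srcap was 8973 in Sirt1 deleted library 1 (5947 to 6660 in the others), Rpl13 was 43958 in Control library 5 (34382 to 36477 in the others), and Pml was 3615 in Control library 5 (3836 to 3917 in the others). Among protein genes, Fbl was 15374 in Sirt1 deleted library 5 (13628 to 14077 in the others) and Exosc6 was 955 in Sirt1 deleted library 4 (1234 to 1339 in the others). Control library 5 held the values that stood apart for Ints2, 1830 (2110 to 2194 in the others), and for Upf3a, 1327 (1174 to 1200 in the others).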

How the results depend on the processing

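Pseudocounts of 0.5 and 5, TMM factors, equal totals (with and without Rn45s), quantile normalization, array weights, robust limma and no filter kept every count within 1.5 times and reversed no named gene. With a minimum of 50 normalized counts, 0 members were called lower and 2 H/ACA snoRNAs higher, since fewer genes were tested. With the length slope or the B cell markers as a covariate, limma called 0 of all genes (577 and 1660 at an unadjusted p under 0.05), 0 members in either direction (7 and 8), 0 Snhg genes and Gas5 (0 and 1), 0 H/ACA snoRNAs (3 and 2) and 0 related protein genes (3 and 17); both covariates differ between the groups. Sirt1 then stood at -0.0012 (slope) and -0.20 (B cell markers), no longer past the threshold. After length correction 1918 of all genes, 12 of 105 members (7 higher, 5 lower), 2 Snhg genes and Gas5, 1 H/ACA snoRNA higher and 17 related protein genes were called; 10 of the 18 called members with a length kept their calls, and 7.79% of all genes were then higher and 6.65% lower.

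With the slope as a covariate these reversed: Gas5 -0.018, Rmrp -0.23, Snhg8 -0.048, Snhg7 -0.20, Snhg3 -0.060, Snhg15 -0.024, Mir8091 0.065, Rpl12 -0.042, Rpl13a -0.056, Eif5 0.072, Xpo5 0.040, Nop10 -0.012, Nhp2 -0.067, Polr3b 0.050 and Ints2 0.10. After length correction Srrm2 (0.12), G3bp1 (0.17), Fbl (-0.081) and Ten1 (-0.0047) reversed, and with B cell markers Mir142b (-0.11); the cause was not tested.

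Leaving out 1 library at a time gave 2212 to 4711 genes, 11 to 25 members (10 to 20 higher and 0 to 5 lower), 3 to 10 of the Snhg genes and Gas5, 3 to 5 H/ACA snoRNAs, 24 to 54 related protein genes, and a Sirt1 difference of -0.50 to -0.35. No paired analysis was possible because the labels give no replicate numbers shared between the groups. Depth limits low values, since at 20 normalized counts a value rests on about 12.4 to 26.2 reads.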
